A study of Homo sapiens with 3 samples.

Results

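Integrin subunits that keratinocytes use to hold on to their matrix were read in RNA sequencing of 3 HaCaT lines: 5 alpha subunit genes (ITGA2, ITGA3, ITGA5, ITGA6 and ITGAV) and 5 beta subunit genes (ITGB1, ITGB4, ITGB5, ITGB6 and ITGB8). They were taken by symbol, and the 10 genes are part of 26 integrin subunit genes among the 55773 gene symbols measured. HaCaT is a spontaneously immortalised human keratinocyte line. All 3 lines carried the oncogenic HRasG12V mutant and were cultured in DMEM plus 10% fetal bovine serum. They differed in what was transduced next: an empty vector, wild-type THG-1 (the protein of the gene TSC22D4) or THG-1 S264A, in which a serine is replaced by alanine. There was 1 library per line. No HaCaT line without HRasG12V was analysed here. Not stated by the labels are whether each line was a clone or a pool of transduced cells and which promoter drove THG-1. The series title concerns THG-1 in the IL-1 and NF-kB pathway, and the lines allow both forms of THG-1 to be set against the vector and against each other.

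Integrins are pairs of an alpha and a beta chain that span the cell membrane. They bind matrix proteins outside the cell and link, inside it, to actin through talin and kindlin or, in hemidesmosomes, to keratin filaments. In the basal layer of the epidermis ITGA6 with ITGB4 forms the hemidesmosome receptor for laminin, ITGA3 with ITGB1 binds laminin as well, and ITGA2 with ITGB1 binds collagen. ITGA5 with ITGB1 binds fibronectin, and ITGAV pairs with ITGB1, ITGB5, ITGB6 or ITGB8 to bind ligands that carry the tripeptide RGD, such as fibronectin, vitronectin and the latent form of TGF-beta.

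With 1 library per line there is no spread between replicates, so no test was possible, and a difference between lines cannot be separated from variation between cultures. Levels are given in RPKM, that is reads scaled to gene length and library depth, so that genes can be compared per length. A ratio of RPKM carries a 95% interval (exact Clopper-Pearson) computed on its recovered reads, which covers counting error only. A gene was counted as higher or lower when log2 of (RPKM + 1) differed by at least 2-fold, among genes at 1 RPKM or more in at least 1 of the 2 libraries. In such bulk samples, fewer cells of a type and less RNA per cell cannot be told apart.

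The libraries held 32055052 (empty vector), 12733479 (wild-type THG-1) and 14022885 (S264A) reads, a depth ratio of 2.52 between the first and the second. TSC22D4 stood at 7.98 RPKM with the empty vector, 64.9 with wild-type THG-1 and 51.1 with S264A. HRAS stood at 23.9, 27.8 and 22.4 RPKM in the same order. All 10 basal keratinocyte markers were above 17 RPKM in every library, with sums of 1004, 1378 and 1381 RPKM. With wild-type THG-1, 2 of the 10 were at least 2-fold higher than with the empty vector (KRT14 and KRT17) and 0 lower, where 4.53% of all genes were higher, while KRT5 (367.2 and 240.5 RPKM) and PERP (42.0 and 32.4 RPKM) stood below the vector by less. With S264A, 1 was higher (KRT14) and 0 lower, where 2.99% of all genes were higher, and KRT5, KRT15, TP63, DSG3 and PERP stood below the vector by less than 2-fold.

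The start windows of 3 members are shown first because ITGA5, ITGAV and ITGB1 stood furthest above the empty vector in the wild-type THG-1 line. Each holds 250 bases before and 10 bases after the RefSeq transcript start (GRCh38.p14), 5′ to 3′ on the gene's strand, and capitals mark every match to 1 of 3 motifs searched on both strands. The motifs were AP-1 (TGANTCA), the GC box (GGGCGG) and NF-kB, and no matches overlapped. ITGA5 lies at chr12:54419257-54419516 on the minus strand, ITGAV at chr2:186589806-186590065 on the plus strand and ITGB1 at chr10:32958221-32958480 on the minus strand, the latter 2 at the first of 2 starts listed.
ITGA5: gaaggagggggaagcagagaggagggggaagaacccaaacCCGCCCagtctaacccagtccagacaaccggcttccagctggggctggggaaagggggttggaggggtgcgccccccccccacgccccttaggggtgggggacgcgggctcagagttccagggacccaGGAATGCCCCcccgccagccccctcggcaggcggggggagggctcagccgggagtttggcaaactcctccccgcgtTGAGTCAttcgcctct
ITGAV: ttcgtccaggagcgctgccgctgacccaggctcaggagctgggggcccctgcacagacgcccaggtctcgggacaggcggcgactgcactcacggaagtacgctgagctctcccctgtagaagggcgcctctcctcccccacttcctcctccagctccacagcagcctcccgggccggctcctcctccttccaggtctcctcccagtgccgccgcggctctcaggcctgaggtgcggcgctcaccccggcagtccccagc
ITGB1: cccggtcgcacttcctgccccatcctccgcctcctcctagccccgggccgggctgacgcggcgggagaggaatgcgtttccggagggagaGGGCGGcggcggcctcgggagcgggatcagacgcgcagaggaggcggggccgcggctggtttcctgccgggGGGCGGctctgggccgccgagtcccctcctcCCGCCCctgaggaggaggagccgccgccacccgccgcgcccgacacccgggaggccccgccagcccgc

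The ITGA5 window held the AP-1 letters TGAGTCA from 6 bases before the start to the first transcribed base. It also held an NF-kB match, GGAATGCCCC, from 82 to 73 bases before the start, and a GC box, CCGCCC, from 210 to 205 bases before it. The ITGB1 window held 3 GC boxes, and the ITGAV window none of the 3 motifs. Of the 10 members, 8 were in the table of starts, with 13 windows, and ITGA3 and ITGB4 were not. Among those 8, ITGA5 alone held AP-1 and ITGA5 alone held NF-kB, while 6 held a GC box (ITGA2, ITGA5, ITGA6, ITGB1, ITGB5 and ITGB8). Counted by window, 1 of the 13 held AP-1, 1 NF-kB and 7 a GC box. Over all 35116 windows of the same length, 6.92% held AP-1, 5.33% NF-kB and 43.1% a GC box. These are matches of letters, not measured sites, and binding was not measured in these lines.

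The 10 subunits were present in all 3 lines, at levels that spanned a wide range within each library. In the empty-vector line the order was ITGB4 (88.3 RPKM), ITGA6 (70.4), ITGA3 (39.0), ITGB1 (28.0), ITGA2 (24.9), ITGB5 (15.0), ITGAV (5.10), ITGB8 (4.80), ITGB6 (3.54) and ITGA5 (3.26). The hemidesmosome chains thus led, and the fibronectin receptor chain ITGA5 was last. ITGAV and ITGB8 were not separated by their counting intervals (ratio 1.06, 0.992 to 1.14), nor were ITGB6 and ITGA5 (ratio 1.09, 0.980 to 1.20). All other neighbours in that order were separated.

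In the wild-type THG-1 line the first 7 places were the same, from ITGB4 at 109.8 RPKM to ITGAV at 8.68 RPKM, followed by ITGA5 at 7.57, ITGB8 at 5.99 and ITGB6 at 3.60 RPKM. ITGA5 thus stood 2 places higher than with the empty vector, and every neighbour was separated by the intervals. In the S264A line ITGA2 (31.4 RPKM) stood above ITGB1 (27.8 RPKM), with a ratio of 1.13 (1.07 to 1.19), and ITGA5 was again last at 2.95 RPKM. It was not separated there from ITGB6 at 3.08 RPKM (ratio 1.04, 0.885 to 1.23). Among genes at 1 RPKM or more in the library, ITGB4 stood above 97.9% with the empty vector, 98.0% with wild-type THG-1 and 97.9% with S264A. ITGA5 stood above 34.5%, 64.0% and 31.5% in the same order.

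**Figure D1:**
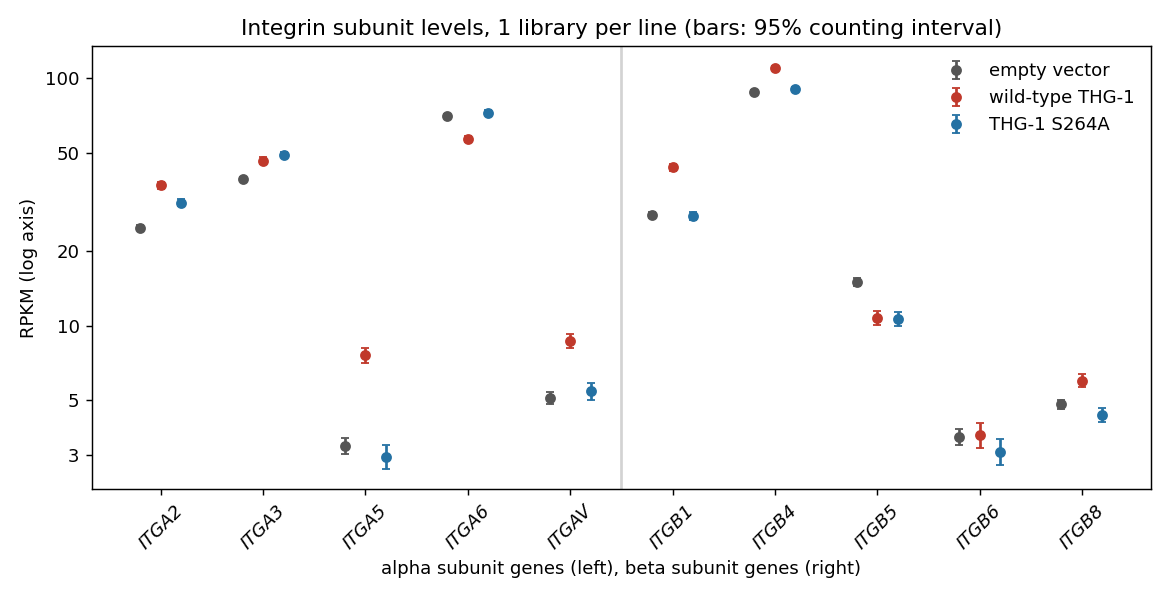
Level of each integrin subunit gene (RPKM, log axis) in the 3 lines, alpha genes on the left and beta genes on the right; points are single libraries and bars are 95% counting intervals. ITGB4 is the highest in every line, and the ITGA5 point of wild-type THG-1 (7.57 RPKM) lies above those of the empty vector (3.26) and S264A (2.95).

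The fibronectin receptor alpha chain ITGA5 differed most between the lines. It stood at 3.26 RPKM with the empty vector (792 reads), 7.57 with wild-type THG-1 (730 reads) and 2.95 with S264A (313 reads). The wild-type THG-1 library was thus the high one, and those of the vector and of S264A lay close together. ITGA5 was 2.32-fold higher with wild-type THG-1 than with the empty vector (2.10 to 2.57), which on the log2 scale of RPKM + 1 is 1.01 and lies just past the 2-fold line. With S264A it was 2.57-fold lower than with wild-type THG-1 (2.25 to 2.94, log2 difference -1.12), and its ratio to the empty vector was 0.903 (0.790 to 1.03). Both of the larger differences rest on the same wild-type THG-1 library.

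The call of ITGA5 against the empty vector depended on how the libraries were scaled to each other. Its log2 difference was 0.97 in the authors' quantile-normalised columns, 0.79 after scaling to the upper quartile of genes above 0, 0.87 after scaling to an equal sum and 0.94 after scaling to the upper quartile of genes at 1 RPKM or more in all libraries, each under the 2-fold line. The median gene moved with these scalings, from -0.01 to -0.22 and -0.14 in the upper quartile of genes above 0 and the equal sum. Relative to the median gene, ITGA5 stood 1.01 to 1.02 higher in all 5 scalings. For S264A against wild-type THG-1 its difference ran from -1.12 to -1.02 over the scalings, past the 2-fold line in each.

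ITGB1, the beta chain that ITGA5 shares with ITGA2, ITGA3 and ITGAV, had the same shape with a smaller difference. It stood at 28.0 RPKM with the empty vector, 43.6 with wild-type THG-1 and 27.8 with S264A. Wild-type THG-1 was again the high library. The ratio was 1.56 (1.49 to 1.63) for wild-type THG-1 against the vector, 0.991 (0.945 to 1.04) for S264A against the vector and 0.636 (0.604 to 0.671) for S264A against wild-type THG-1. None of these reached 2-fold. ITGA5 amounted to 0.116 of ITGB1 with the empty vector (0.108 to 0.125), 0.173 with wild-type THG-1 (0.160 to 0.188) and 0.106 with S264A (0.0940 to 0.119), so the alpha chain differed more than its partner did.

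The collagen receptor chain ITGA2 stood at 24.9 RPKM with the empty vector, 37.0 with wild-type THG-1 and 31.4 with S264A. It was thus lowest with the vector and in between with S264A, unlike ITGB1. The ratio was 1.49 (1.43 to 1.55) for wild-type THG-1 against the vector, 1.26 (1.21 to 1.32) for S264A against the vector and 0.848 (0.810 to 0.889) for S264A against wild-type THG-1. Per unit of ITGB1, ITGA2 stood at 0.888 with the vector (0.856 to 0.921), 0.847 with wild-type THG-1 (0.808 to 0.888) and 1.13 with S264A (1.07 to 1.19).

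Among the laminin receptor chains, ITGA3 stood at 39.0 RPKM with the empty vector, 46.4 with wild-type THG-1 and 49.2 with S264A. Both THG-1 lines were somewhat above the vector, by 1.19 (1.15 to 1.23) and 1.26 (1.22 to 1.30) as ratios. For wild-type THG-1 this difference vanished after scaling to the upper quartile of genes above 0, where it was -0.01 on the log2 scale. The ratio of ITGA3 to ITGB1 was 1.39 (1.35 to 1.44) with the vector, 1.06 (1.02 to 1.11) with wild-type THG-1 and 1.77 (1.69 to 1.86) with S264A.

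The hemidesmosome pair went apart in the wild-type THG-1 line. ITGA6 stood at 70.4 RPKM with the empty vector, 56.8 with wild-type THG-1 and 72.5 with S264A, so that the wild-type THG-1 library was the low one. Its partner ITGB4 stood at 88.3, 109.8 and 90.6 RPKM in the same order, with the wild-type THG-1 library the high one. For ITGA6 the ratio of wild-type THG-1 to the vector was 0.807 (0.781 to 0.833), and for ITGB4 it was 1.24 (1.21 to 1.27). The ITGB4 difference depended on the scaling, from 0.05 to 0.31 on the log2 scale. That of ITGA6 ran from -0.56 to -0.30.

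Within a library the ratio of ITGA6 to ITGB4 does not depend on a factor that scales the whole library. It was 0.797 with the empty vector (0.780 to 0.814), 0.518 with wild-type THG-1 (0.500 to 0.536) and 0.800 with S264A (0.775 to 0.826). The vector and S264A lines thus had overlapping intervals, and the wild-type THG-1 line lay apart from both. For S264A against the vector, ITGA6 and ITGB4 each had a ratio of 1.03, with intervals of 1.00 to 1.06 and 0.999 to 1.05, and the sign of both differences turned negative in 3 of 4 other scalings. S264A against wild-type THG-1 gave 1.28 (1.23 to 1.32) for ITGA6 and 0.825 (0.801 to 0.850) for ITGB4. For ITGB4 this difference ran from -0.27 to -0.08 on the log2 scale over the scalings.

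ITGAV, the alpha chain of the RGD-binding group, stood at 5.10 RPKM with the empty vector, 8.68 with wild-type THG-1 and 5.43 with S264A. Like ITGA5 and ITGB1, it was high in the wild-type THG-1 library alone. The ratio was 1.70 (1.56 to 1.85) for wild-type THG-1 against the vector, 1.06 (0.967 to 1.17) for S264A against the vector, a difference that was -0.10 on the log2 scale with the upper quartile of genes above 0, and 0.625 (0.564 to 0.693) for S264A against wild-type THG-1. Per unit of ITGB1, ITGAV stood at 0.182 (0.171 to 0.193), 0.199 (0.185 to 0.214) and 0.196 (0.179 to 0.214) in the 3 lines, with overlapping intervals.

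Of its other beta partners, ITGB8 had the same shape with a smaller difference, and ITGB5 and ITGB6 did not. ITGB5, a receptor chain for vitronectin, stood at 15.0 RPKM with the empty vector, 10.7 with wild-type THG-1 and 10.7 with S264A. It was thus low in both THG-1 lines, at ratios to the vector of 0.714 (0.662 to 0.770) and 0.711 (0.661 to 0.764), and the 2 THG-1 lines were not separated (ratio 0.995, 0.907 to 1.09). The sign of that last difference was positive in all 4 other scalings.

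ITGB6, which with ITGAV binds and activates latent TGF-beta, stood at 3.54, 3.60 and 3.08 RPKM with the empty vector, wild-type THG-1 and S264A. No pair of lines was separated by the intervals: the ratio was 1.02 (0.885 to 1.17) for wild-type THG-1 and 0.870 (0.754 to 1.00) for S264A, each against the vector, and 0.855 (0.722 to 1.01) between the THG-1 lines. The direction for wild-type THG-1 turned negative in 3 of 4 other scalings, for example -0.19 on the log2 scale with the upper quartile of genes above 0. ITGB8, another latent TGF-beta receptor chain, had levels of 4.80, 5.99 and 4.35 RPKM. Its ratio was 1.25 (1.16 to 1.34) for wild-type THG-1 against the vector, 0.905 (0.838 to 0.977) for S264A against the vector and 0.726 (0.665 to 0.792) between the THG-1 lines. The ITGB8 difference for wild-type THG-1 against the vector depended on the scaling, from 0.05 to 0.27 on the log2 scale.

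**Figure D2:**
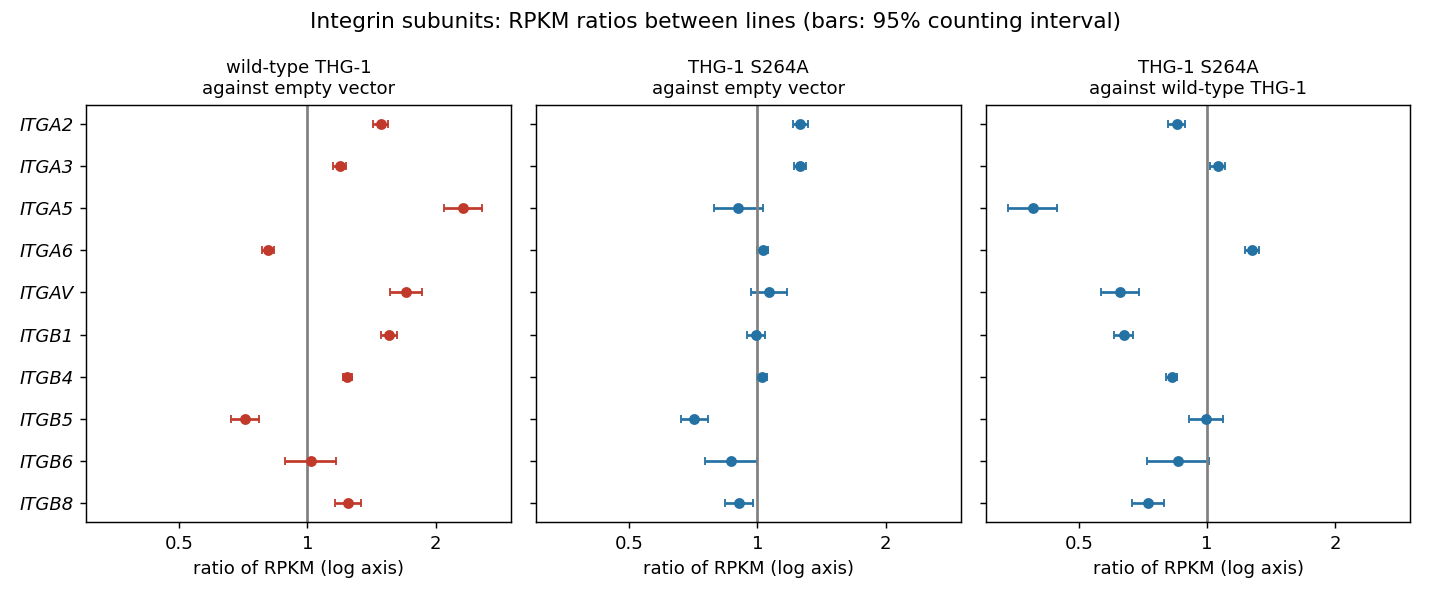
Ratio of RPKM between lines for each integrin subunit (log axis), 1 panel per comparison, with 95% counting intervals as bars. ITGA5 reaches 2.32 for wild-type THG-1 against the empty vector and 0.389 for S264A against wild-type THG-1, and all other members lie between 0.625 and 1.70.

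Counted over all 10 members, wild-type THG-1 against the empty vector had 1 member at least 2-fold higher (ITGA5) and 0 lower, where over all 11993 genes compared 4.53% were higher and 1.54% lower (6.07% in all). The next members below the line were ITGAV at a log2 difference of 0.67 and ITGB1 at 0.62. The median member stood at 0.29 and the median gene at -0.01, and 8 members were above 0 and 2 below (ITGA6 and ITGB5), beside 49.5% of all genes above 0. Of the 8, ITGA3 (-0.01) and ITGB6 (-0.19) fell below 0 with the upper quartile of genes above 0. The share of higher genes among all those called was 74.6% as reported, 51.8% with the upper quartile of genes above 0 and 62.7% with the equal sum. ITGA5 ranked 531 from the highest of the 11993 genes, so 4.42% of genes differed more in that direction.

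For S264A against the empty vector 0 members were at least 2-fold higher and 0 lower, beside 2.99% and 0.824% of 12010 genes (3.81% in all). The largest difference was that of ITGB5, at -0.46. The median member stood at 0.01 and the median gene at 0.02, with 5 members above 0 and 5 below. The median size of the difference, whatever its sign, was 0.11 for the members and 0.20 for all genes. Of all called genes 78.4% were higher, and 59.3% with the upper quartile of genes above 0, which moved the median gene to -0.16. That scaling also moved ITGA6, ITGAV and ITGB4 from above 0 to below it.

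For S264A against wild-type THG-1 0 members were higher and 1 was lower (ITGA5), beside 1.55% and 2.23% of 12069 genes (3.78% in all). ITGB1 at -0.63 and ITGAV at -0.59 were next. The median member stood at -0.25 and the median gene at 0.02, with 2 members above 0 (ITGA3 and ITGA6) and 8 below, all 5 beta genes among the latter. Of these, ITGB5 lay at only -0.007 and was positive in all 4 other scalings. Of all called genes 41.0% were higher, and 50.9% with the equal sum, which moved the median gene to 0.12. The 3 comparisons share libraries pairwise, so that their values are set side by side here and are not independent.

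**Figure D3:**
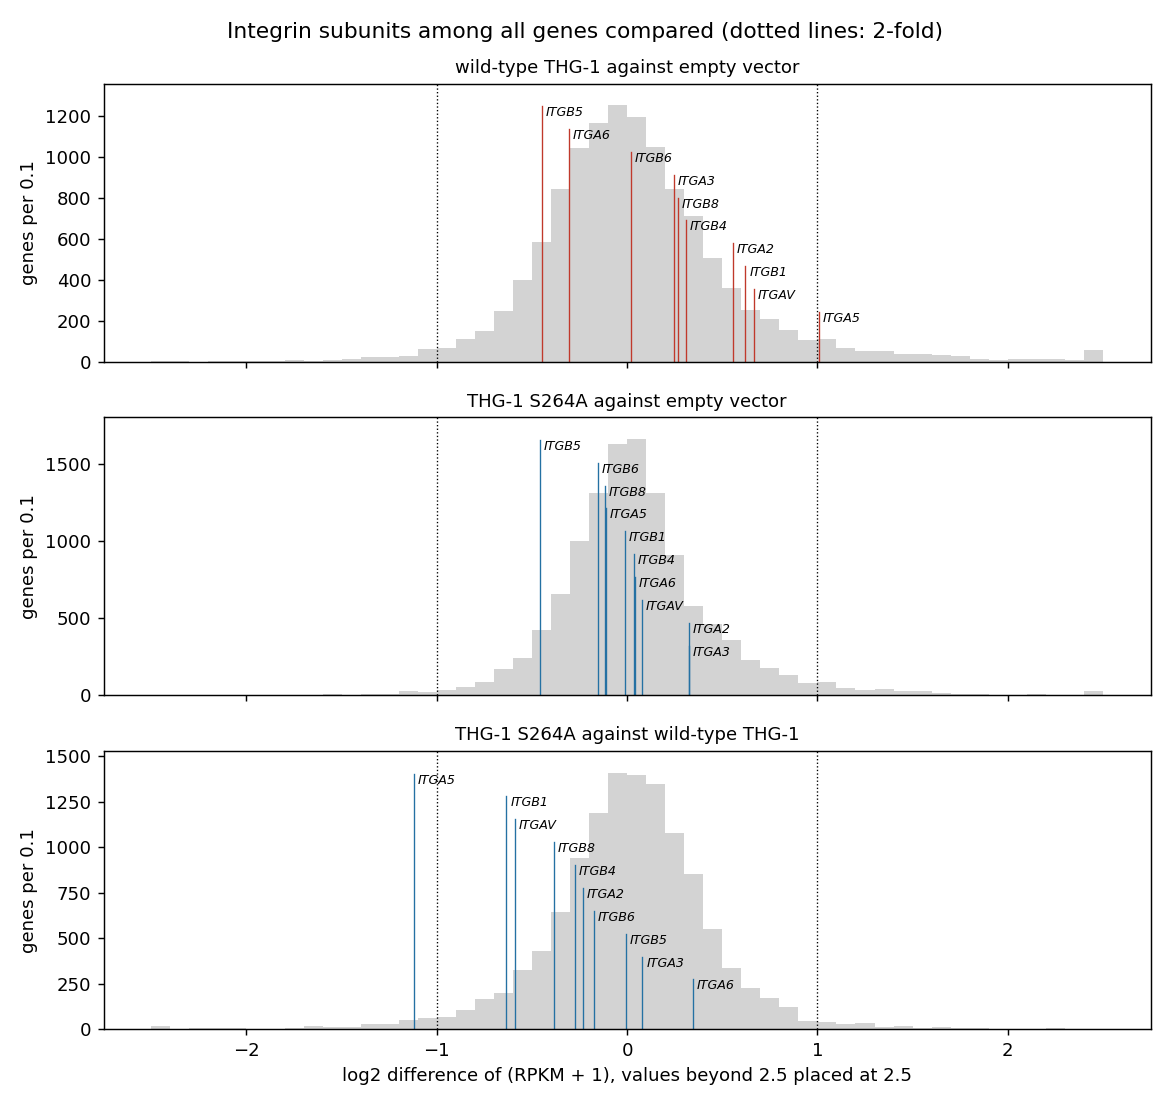
Distribution of the log2 difference of RPKM + 1 over all genes compared (grey, genes per bin of 0.1) in each comparison, with the 10 integrin subunits as vertical lines whose height carries no value and dotted lines at 2-fold. ITGA5 lies past a dotted line for wild-type THG-1 against the empty vector (1.01) and for S264A against wild-type THG-1 (-1.12), and no member does for S264A against the empty vector.

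Read as shares, the make-up of the alpha chains differed more between the lines than that of the beta chains. The 5 alpha genes summed to 142.7 RPKM with the empty vector, 156.5 with wild-type THG-1 and 161.4 with S264A. ITGA6 made up 49.4%, 36.3% and 44.9% of that sum, and was the largest share in each line. ITGA3 made up 27.4%, 29.7% and 30.5%, and ITGA2 17.4%, 23.6% and 19.4%. ITGAV held 3.57%, 5.55% and 3.36%. ITGA5 held 2.29%, 4.84% and 1.83%, and so stayed a small share in every line.

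The 5 beta genes summed to 139.7 RPKM with the empty vector, 173.7 with wild-type THG-1 and 136.4 with S264A. ITGB4 made up 63.3%, 63.2% and 66.4% of it, and ITGB1 20.0%, 25.1% and 20.3%. ITGB5 made up 10.7%, 6.16% and 7.81%, with the vector highest. The alpha sum was 1.02 times the beta sum with the vector, 0.901 times with wild-type THG-1 and 1.18 times with S264A.

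For the RGD-binding group, ITGB5 was 2.94 times ITGAV with the empty vector (2.76 to 3.14), 1.23 times with wild-type THG-1 (1.12 to 1.35) and 1.96 times with S264A (1.77 to 2.17). The 3 intervals did not overlap. ITGB5, ITGB6 and ITGB8 together summed to 23.3 RPKM, 20.3 RPKM and 18.1 RPKM, and ITGAV amounted to 0.219, 0.428 and 0.300 of that sum. ITGB5 made up 64.2%, 52.8% and 58.9% of these 3 partners, and was the largest of them in every line.

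**Figure D4:**
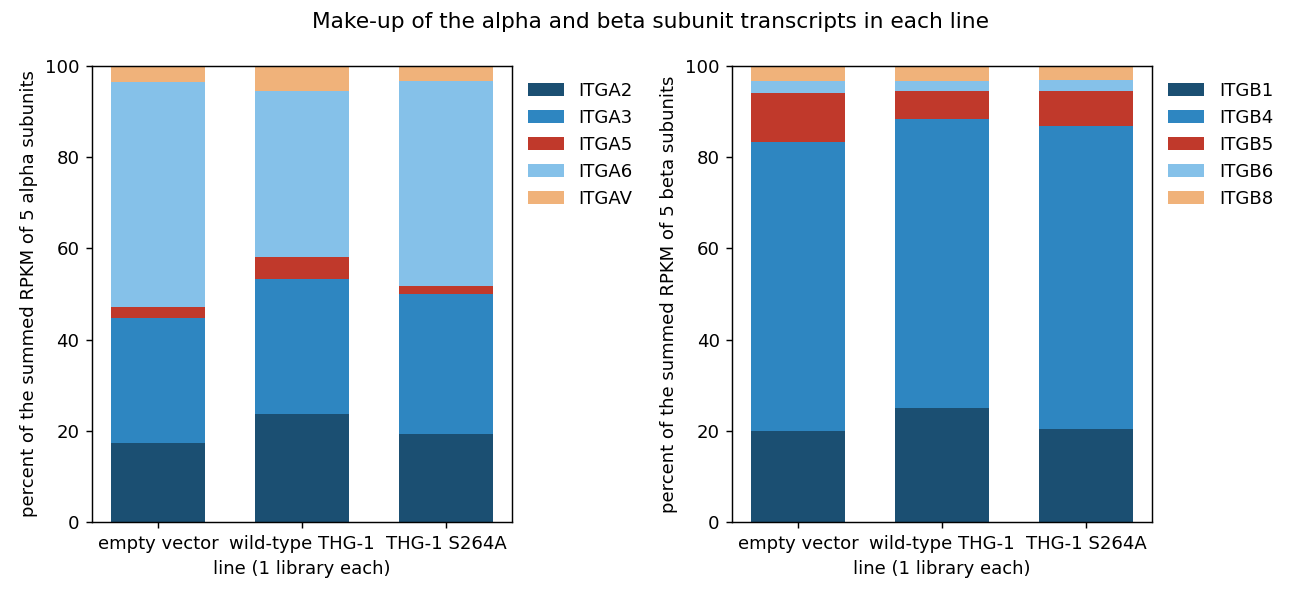
Share of each gene in the summed RPKM of the 5 alpha subunits and of the 5 beta subunits (percent), 1 stacked bar per line. ITGA6 takes 49.4% of the alpha sum in the vector line and 36.3% in the wild-type THG-1 line, while ITGB4 stays between 63.2% and 66.4% of the beta sum.

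The other 16 integrin subunit genes were low. At or above 1 RPKM in at least 1 library were ITGA1, ITGAE and ITGB7. Only these 3 were compared, and 0 of the 3 passed 2-fold in any comparison, beside 6.07%, 3.81% and 3.78% of all genes. ITGA1, a collagen receptor chain, stood at 0.402 RPKM with the empty vector, 1.38 with wild-type THG-1 and 1.03 with S264A. As plain ratios to the vector these are 3.43 (2.90 to 4.07) and 2.57 (2.15 to 3.08), which the scale of RPKM + 1 compresses. ITGAE, which binds E-cadherin when paired with ITGB7, stood at 1.02, 0.838 and 1.12 RPKM. ITGB7 stood at 1.59, 1.02 and 2.47 RPKM, and its ratio for S264A against wild-type THG-1 was 2.43 (1.78 to 3.34).

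Several ligands of ITGA5 and ITGAV differed between the lines by more than any member did. Of 17 fibronectin and RGD ligand genes, 7 were compared for wild-type THG-1 against the empty vector, with 2 higher (CYR61 and CTGF) and 1 lower (EDIL3). For S264A against the vector 6 were compared, with 0 higher and 3 lower (FN1, EDIL3 and TGFBI). For S264A against wild-type THG-1 6 were compared, with 0 higher and 4 lower (FN1, CYR61, THBS1 and TGFBI). The median log2 difference of those compared was 0.58, -0.70 and -1.15, beside -0.01, 0.02 and 0.02 for all genes. Over all 17 genes, most of them under 1 RPKM, it was 0, -0.03 and -0.06. The genes compared also changed with the filter: CTGF entered only through the wild-type THG-1 library and EDIL3 only through the vector library. Of all genes, 4.53% were higher and 1.54% lower in the first comparison. The shares were 2.99% and 0.824% in the second, and 1.55% and 2.23% in the third.

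FN1, fibronectin itself and the ligand of ITGA5, stood at 7.92 RPKM with the empty vector, 12.3 with wild-type THG-1 and 1.23 with S264A. The S264A library was low. It was 6.43-fold lower than the vector (5.72 to 7.26) and 9.99-fold lower than wild-type THG-1 (8.86 to 11.3), and wild-type THG-1 was 1.55 (1.48 to 1.63) times the vector. So ITGA5 was close to the vector level in the S264A line while FN1 was not.

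THBS1, thrombospondin, stood at 70.6, 135.8 and 59.0 RPKM with the empty vector, wild-type THG-1 and S264A, and was 2.30-fold lower in S264A than in wild-type THG-1 (2.25 to 2.36). CYR61, a secreted matrix-associated protein, stood at 5.87, 19.1 and 6.36 RPKM, and was 3.25-fold higher with wild-type THG-1 than with the vector (2.88 to 3.68). CTGF, of the same family, stood at 0.267, 1.71 and 0.701 RPKM, at 20, 51 and 23 reads. Wild-type THG-1 was thus the high library for these 3 genes, as it was for ITGA5. The THBS1 call was lost in the quantile-normalised columns (-0.997), and the CTGF call with the upper quartile of genes above 0 (0.9995).

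TGFBI, a matrix protein induced by TGF-beta, had another shape, at 49.0, 51.6 and 23.3 RPKM, and was low in S264A alone. It was 2.10-fold lower there than with the vector (2.01 to 2.19), while its call against wild-type THG-1 was lost with the equal sum by less than rounding shows. EDIL3, an RGD protein, stood at 4.09, 0.520 and 0.646 RPKM and was high with the vector alone. It was 7.87-fold lower with wild-type THG-1 (5.68 to 11.2) and 6.33-fold lower with S264A (4.78 to 8.56).

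Of the 11 laminin chain genes examined here 6 were compared, and 0 of these passed 2-fold in any comparison. Of all genes, 6.07% passed for wild-type THG-1 against the vector, 3.81% for S264A against it and 3.78% between the THG-1 lines. A count of 0 among 6 genes lies near these shares. LAMB3, the highest of them and a chain of the epidermal basement membrane, stood at 90.8 RPKM with the empty vector, 123.7 with wild-type THG-1 and 111.3 with S264A. LAMA3, another basement membrane chain, named after its values were seen, stood at 16.3, 30.4 and 21.1 RPKM. Both were highest with wild-type THG-1, as ITGB4 was, although the difference of S264A from wild-type THG-1 turned positive for LAMB3 in the quantile-normalised columns (0.05). LAMB1 was also highest there, at 12.6, 16.1 and 14.0 RPKM. LAMA5 (43.5, 37.2 and 44.0 RPKM), LAMC1 (25.3, 20.7 and 21.0) and LAMB2 (9.84, 5.79 and 8.42) were instead lowest with wild-type THG-1. The chains compared thus had no common order, and these further chains were named after their values were seen.

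Of 16 collagen genes 4 were compared, and 0 passed 2-fold in any comparison, beside 6.07%, 3.81% and 3.78% of all genes. The highest of them, COL4A2 of the basement membrane, stood at 22.8, 18.2 and 15.0 RPKM with the empty vector, wild-type THG-1 and S264A, highest with the vector, unlike the collagen receptor ITGA2. COL7A1, the collagen of anchoring fibrils, named after its values were seen, was past 2-fold lower with wild-type THG-1 than with the vector after scaling to the upper quartile of genes above 0 (-1.08, against -0.85 as reported).

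Of 7 genes of latent TGF-beta and its binding proteins, 4 were compared for each THG-1 line against the vector and 3 between them. On the scale of RPKM + 1, 0 passed 2-fold, beside 6.07%, 3.81% and 3.78% of all genes. LTBP1, which binds latent TGF-beta to the matrix and was named after its values were seen, stood at 1.30 RPKM with the empty vector (305 reads), 0.225 with wild-type THG-1 (21 reads) and 0.185 with S264A (19 reads). As plain ratios it was 5.77-fold (3.71 to 9.46) and 7.02-fold (4.42 to 11.8) lower than the vector. That scale compresses them to -0.91 and -0.96, and both passed 2-fold with the upper quartile of genes above 0 (-1.02 and -1.06). LTBP3, which stores latent TGF-beta in the matrix, stood at 14.1, 15.0 and 15.7 RPKM, and TGFB1, TGF-beta itself, at 11.3, 18.8 and 11.1 RPKM.

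Hemidesmosome partners of ITGA6 and ITGB4 gave 0 of 5 genes past 2-fold in each comparison, beside 6.07%, 3.81% and 3.78% of all genes. With the upper quartile of genes above 0, 1 was lower for S264A against the vector (DST, -1.12). COL17A1, the transmembrane collagen of hemidesmosomes, stood at 72.1 RPKM with the empty vector, 93.4 with wild-type THG-1 and 72.8 with S264A. This is the order of ITGB4, not that of ITGA6, with a ratio of 1.30 (1.26 to 1.33) for wild-type THG-1 against the vector. On the log2 scale the COL17A1 difference was 0.37, and 0.11 with the upper quartile of genes above 0.

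Among 40 genes of talin, kindlin and focal adhesion adaptors, 32 were compared, and 1 was higher in each THG-1 line against the vector (FERMT1), with 0 lower. Of all genes, 4.53% were higher with wild-type THG-1 and 2.99% with S264A. FERMT1 encodes kindlin-1, the keratinocyte kindlin that binds beta chain tails. It stood at 17.2 RPKM with the empty vector, 37.5 with wild-type THG-1 and 39.0 with S264A. The ratios to the vector were 2.18 (2.06 to 2.30) and 2.26 (2.15 to 2.38). The call for wild-type THG-1 was lost in all 4 other scalings (0.83 to 0.995 on the log2 scale), and that for S264A with the upper quartile of genes above 0 (0.93). TNS3, a tensin that binds beta chain tails, named after its values were seen, stood at 11.1, 5.58 and 6.55 RPKM. Its difference for wild-type THG-1 against the vector was -0.88, and it passed 2-fold lower with the upper quartile of genes above 0 (-1.11) and with the equal sum (-1.02). Between S264A and wild-type THG-1 0 of the 32 passed, beside 3.78% of all genes. FLNA, filamin A and the highest of the list, stood at 134.8, 158.1 and 103.5 RPKM.

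Of 10 tetraspanins and other surface partners, 2 were higher with wild-type THG-1 than with the vector, CD82 and PLAUR, beside 4.53% of all genes. PLAUR, the urokinase receptor, stood at 2.97 RPKM with the empty vector, 12.7 with wild-type THG-1 and 4.10 with S264A. It was 4.29-fold higher with wild-type THG-1 than with the vector (3.80 to 4.84) and 3.11-fold lower in S264A than in wild-type THG-1 (2.69 to 3.60). CD82, a tetraspanin, stood at 6.97, 25.0 and 16.8 RPKM, so that both THG-1 lines lay above the vector, by 3.58 (3.29 to 3.91) and 2.41 (2.20 to 2.64), the latter under 2-fold with the upper quartile of genes above 0 (0.98).

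Of 18 genes of integrin endocytosis and recycling 15 were compared, and against the vector 1 was higher with wild-type THG-1, 2 with S264A. The shares of all genes that were higher were 4.53% and 2.99%. RAB11FIP1, which returns integrins to the cell surface, stood at 4.67, 21.1 and 11.1 RPKM. Its ratio to the vector was 4.51 (4.22 to 4.81) with wild-type THG-1 and 2.38 (2.22 to 2.56) with S264A, the latter under 2-fold with the upper quartile of genes above 0 (0.92). CLIC3, also of integrin recycling, stood at 0.610, 1.07 and 2.24 RPKM, from 23, 16 and 37 reads, and its call for S264A held in 1 of 4 other scalings. Between S264A and wild-type THG-1 0 of the 15 passed, beside 3.78% of all genes. ARF6, the highest of the list, stood at 49.6, 51.9 and 75.1 RPKM.

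**Figure D5:**
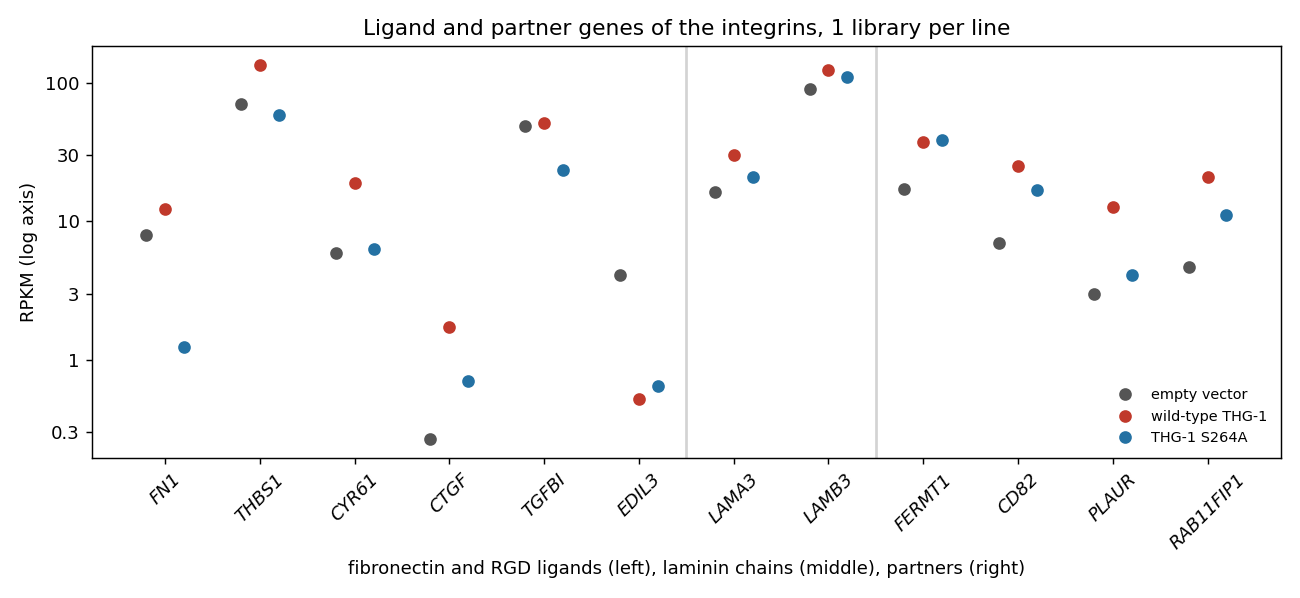
Levels (RPKM, log axis) of ligand and partner genes of the integrins in the 3 lines, each point 1 library, with fibronectin and RGD ligands on the left, laminin chains in the middle and partners on the right. FN1 is low with S264A (1.23 RPKM, against 7.92 and 12.3), EDIL3 is high with the empty vector alone (4.09 RPKM), and PLAUR is highest with wild-type THG-1 (12.7 RPKM).

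The genes of these lists with the pattern most like ITGA5 were sought over the log2 differences of both THG-1 lines from the empty vector, among 85 genes and from 3 libraries. THBS1 was nearest, at a distance of 0.16, with differences of 0.93 and -0.26 where ITGA5 had 1.01 and -0.11. TGFB1 followed at 0.33 and VCL, vinculin of focal adhesions, at 0.38, with VCL at 28.1, 46.5 and 30.6 RPKM with the empty vector, wild-type THG-1 and S264A.

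Most markers of other cell types lay under 1 RPKM in all 3 libraries, but CD68 and FBLN1 reached the levels of the lowest integrin members. Of 9 leukocyte markers CD68 alone reached 1 RPKM, at 0.941, 5.21 and 1.70 RPKM with the empty vector, wild-type THG-1 and S264A, and it was called higher and lower in the same comparisons as ITGA5. The list summed to 1.26, 5.66 and 2.18 RPKM, while PTPRC, the leukocyte marker that defines the class, stood at 0.00367, 0 and 0.00838 RPKM. MITF alone of 6 melanocyte markers reached 1 RPKM, at 0.600, 1.70 and 0.829 RPKM, with TYR at 0 in every library. FBLN1 was the only one of 9 fibroblast markers at 1 RPKM, at 3.96, 3.39 and 3.84 RPKM, with LUM and PDGFRA at 0. VWF was the only one of 5 endothelial markers to reach it, at 0.311, 0.348 and 1.51 RPKM. The summed levels of the melanocyte, fibroblast and endothelial lists stayed within 1.32 to 2.26, 4.31 to 4.55 and 0.556 to 1.85 RPKM.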

How the data were processed

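RNA of 3 HaCaT lines with HRasG12V was sequenced on an Illumina NextSeq500, per the labels. The deposited table has 57773 rows and 2 columns per library. The first holds RPKM, computed by the authors per the file headers. The second holds RPKM quantile-normalised across the libraries: sorted by size, its values matched between libraries and matched the average of the 3 sorted RPKM columns. Per the submitters' processing notes the build was hg19. For the aligner, counter, annotation and strandedness: not given in the sources used here. No column of samples outside the series was present.

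The RPKM columns gave the results, and the quantile-normalised ones an alternative. For the 234 symbols with several rows, the row of highest mean RPKM stood for the gene. RPKM moves in steps of 1 read, so depths and reads were recovered from 1-exon genes and gene lengths (GENCODE release 29), within 0.001 reads, for all 10 members and for 172 of 172 genes looked up that were above 0. The length was that of the annotation for 6 members and the multiple of the smallest possible length nearest to it for 4. Member reads ran from 274 to 19146. Ratio intervals are exact Clopper-Pearson (95%). Recovery and calling were tested on simulated data. Promoter sequences are those of RefSeq, whose build differs from hg19, so no coordinates come from the table.

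Named were all members, other subunits at 1 RPKM or more, and in each further list up to 4 called genes by size, or the gene with the highest mean where none was called. There were 15 lists with the members, 5 of them markers; 4 symbols were matched through an older symbol and 2 were not in the table. 1 item of the lists is not reported here and was left out of their counts. Members and lists were chosen with earlier results of these data known. Alternatives changed the pseudocount, the filter, the scaling and, for partner ratios alone, the handling of repeated symbols (rows summed). Python 3.11.15, numpy 2.4.6, pandas 2.3.3, scipy 1.17.1 and matplotlib 3.10.9 were used.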

Additional observations from a re-analysis of the deposited data

How the results depend on the processing

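No paired analysis was possible because each line has 1 library. For wild-type THG-1 against the empty vector the count of members past 2-fold, 1 as reported, was 0 with a pseudocount of 5, in the quantile-normalised columns, with the upper quartile of genes above 0, with the equal sum and with the upper quartile of genes at 1 RPKM or more in all libraries, the last chosen after seeing the data. For S264A against wild-type THG-1 it was 0 with a pseudocount of 5 (ITGA5 at -0.66) and 1 in all other settings. All genes past 2-fold numbered 728 for wild-type THG-1 against the vector and 1361, 184 and 387 with a pseudocount of 0.1, a pseudocount of 5 and a filter at 5 RPKM. They numbered 458 for S264A against the vector and 941, 94 and 204 under the same settings, and 456 for S264A against wild-type THG-1 and 1027, 89 and 220. Of 240 member log2 differences recomputed, 171 stayed within the counting interval and 69 moved, and 15 changed sign, none of them a called value. Settings that changed the filter alone leave a log2 difference as it is by construction, and their values count among those that stayed. All 18 recomputed partner ratios stayed within their counting interval. Those with rows summed could not move, because no member had more than a single row. Of 81 list counts 70 stayed within 1.5 times and 11 moved. The cause of these moves was not tested, except that a larger pseudocount or filter shrinks or removes low genes by construction. Depth limits ITGB6 and ITGA5 most, with 274 and 313 reads in the S264A library.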

Other observations

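ITGA4, a subunit that leukocytes use and that binds fibronectin and VCAM1, lay under 1 RPKM in every library and so entered no comparison; it was chosen for mention after its values were seen. It stood at 0.604 RPKM with the empty vector (153 reads), 0.0398 with wild-type THG-1 (4 reads) and 0.0181 with S264A (2 reads). It was 15.2-fold lower with wild-type THG-1 than with the vector (5.81 to 56.5), and its ratio for S264A against the vector was 0.0299 (0.00359 to 0.110). Among the fibronectin and RGD ligands that entered a comparison, EDIL3 alone was past 2-fold lower in both THG-1 lines. FBN1, a ligand of that list under 1 RPKM like ITGA4, was also low in both. It stood at 0.414 RPKM with the vector (213 reads), 0.122 with wild-type THG-1 (25 reads) and 0.0755 with S264A (17 reads).

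DST, the hemidesmosome plakin that links ITGB4 to keratin, stood at 8.94 RPKM with the empty vector, 5.21 with wild-type THG-1 and 4.17 with S264A, 2.14-fold lower as a plain ratio for S264A against the vector (2.05 to 2.24). On the scale of RPKM + 1 this is -0.94, under 2-fold, and it passed 2-fold with the upper quartile of genes above 0 (-1.12). TLN1, talin, which binds ITGB1, stood at 22.0, 20.7 and 12.4 RPKM, and was low with S264A alone. COL7A1, the anchoring fibril collagen beneath hemidesmosomes, stood at 12.2, 6.31 and 9.19 RPKM, lowest in the wild-type THG-1 line, where its ratio to the vector was 0.519 (0.483 to 0.558), past 2-fold on the log2 scale only with the upper quartile of genes above 0 among the scalings run (-1.08). These 3 genes were also chosen after their values were seen.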
